A study of Mus musculus with 21 samples.

Results

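The genes described here belong to the type 2 alveolar epithelial cell of the mouse lung, the cell that makes surfactant. They were chosen as a list of 10 symbols: the surfactant protein genes Sftpa1, Sftpb, Sftpc and Sftpd, the surfactant handling genes Abca3, Napsa and Lamp3, and the regulators Fgfr2, Etv5 and Nkx2-1. Of these 10 genes, 9 were measured by probe sets of their own, 15 in all, out of 12393 genes on the array that had a probe set to themselves. The Lamp3 probe set is annotated to Lamp3 and to a second gene, Ppid, so no value is given for Lamp3. A filter on dim signals kept 14 of the 15 probe sets.

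The study followed whole right lungs of 3 inbred strains, A/J, C57BL/6 and C3H/HeJ, after bleomycin, a DNA-breaking antitumour drug that injures the lung, delivered from an osmotic minipump. Each of the 21 arrays held 1 RNA pool from 3 to 5 mice, and no array carried a single animal. A/J pools were controls (1 male, 1 female), 3 weeks after bleomycin (males at 80 and 100 mg/kg, females at 100 and 125 mg/kg) and 6 weeks after it (male 100, female 125 mg/kg). C57BL/6 pools were controls (1 male, 1 female), 3 weeks and moribund mice of unstated time (each male 100 and female 125 mg/kg), and 6 weeks, for which there was 1 array (female 125 mg/kg). C3H/HeJ pools were controls, 3 weeks and 6 weeks, each with 1 male and 1 female array. The treated C3H/HeJ pools had the same doses (male 100, female 125 mg/kg). The ages of the mice and the handling of the controls were not in the labels. The labels do not say more of how the pools of a group were formed, so p-values measure the spread between these pools.

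Surfactant is a film of phospholipid and protein that lowers surface tension in the alveoli. Type 2 cells assemble it in lamellar bodies, where the transporter Abca3 loads lipid and the small hydrophobic proteins encoded by Sftpb and Sftpc are packed with it; the larger collectins encoded by Sftpa1 and Sftpd bind microbes and help surfactant turn over. Nkx2-1 is the homeodomain transcription factor that drives surfactant protein genes, and Fgfr2 is the receptor through which FGF ligands maintain the type 2 cell, in part by way of the transcription factor Etv5. Loss of surfactant protein B or of Abca3 causes respiratory failure at birth, and injury of this cell is a known step of bleomycin damage.

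The deposited values are linear intensities. Array medians ran from 58.4 to 111, so signals were quantile normalized between arrays, and the intensities below are these normalized values. Changes are differences in log2(intensity + 16) from the controls of the same strain, from 1 limma model with terms for group and sex over 15084 probe sets, with standard errors (SE) and Benjamini-Hochberg adjusted p-values; a probe set was called when that p was under 0.05. The labelled sex was borne out on every array: Eif2s3y, a Y-linked gene, read 70.1 to 312 on the 10 male arrays and 0.2 to 7.2 on the 11 female arrays as deposited. Gapdh control probes near the 3′ end read higher than those near the 5′ end where RNA is degraded; this ratio was highest on the C3H/HeJ female array of 6 weeks (2.08) and ran from 0.770 upwards on the others. With 1 array per pool and mostly 2 pools per group, the number of arrays limits the precision. With so few arrays, groups can lie apart without a change, and how many of all probe sets did so was not counted.

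In C57BL/6 lungs at 3 weeks, 7 of the 14 member probe sets, of 5 genes, were called lower and 0 higher; over all probe sets tested 5.04% were called lower and 5.66% higher. The 5 genes were Sftpa1, Sftpb, Abca3, Etv5 and Fgfr2. The median change of the 14 probe sets was −0.61 on the log2 scale, beside −0.01 over all probe sets. In A/J and in C3H/HeJ lungs at 3 weeks 0 member probe sets were called with limma (3 and 1 of the 14 had an unadjusted p under 0.05, as had 10.1% and 14.9% of all probe sets), where 0.192% and 0.57% of all probe sets were called lower and 0.65% and 1.13% higher. Sftpc, Sftpd, Napsa and Nkx2-1 were not called in any strain at 3 weeks.

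**Figure D1:**
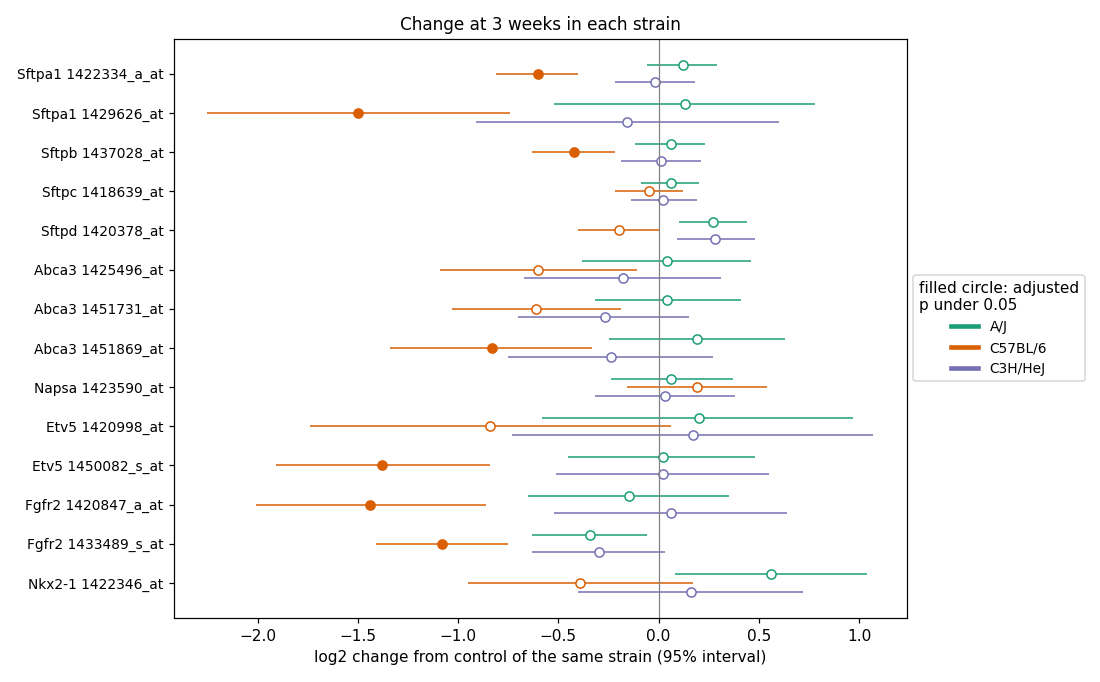
Change at 3 weeks from the controls of the same strain for the 14 tested member probe sets, in log2 units, with the fitted value as a circle and its 95% interval as a bar; filled circles passed at adjusted p under 0.05. The filled circles are the 7 C57BL/6 probe sets between −0.42 and −1.50, and no A/J or C3H/HeJ circle is filled.

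Sftpa1 encodes surfactant protein A, the most abundant surfactant collectin, and was read by a very bright probe set and a dimmer one. On the bright one, 1422334_a_at, C57BL/6 controls read 5814 in the male and 6274 in the female pool, and both 3 week pools read 3971. The groups did not overlap, and the change was −0.60 (SE 0.10, limma adjusted p = 0.000691), a 1.52-fold lower signal. On 1429626_at the controls read 1807 and 2202 against 548 (male) and 885 (female) at 3 weeks, again without overlap, and the change was −1.50 (SE 0.36, adjusted p = 0.0123), or 2.82-fold. Both probe sets fell, by different amounts: the brighter one stood at rank 11 to 79 among the 22626 probe sets of an array, the dimmer one at rank 297 to 4038. Their levels over the 10 groups followed each other (Pearson r = 0.907 over 10 group means, which share all arrays), with C57BL/6 controls highest on both. In A/J the bright probe set read 5431 and 5340 in controls and 5506 to 6192 in the 4 pools at 3 weeks; in C3H/HeJ it read 5132 and 5079 in controls and 4657 and 5431 at 3 weeks. These changes, 0.12 (SE 0.08) and −0.02 (SE 0.10), were not called. As deposited, the 3 week pools of the bright probe set lay below controls in C57BL/6 (4200 to 4680 against 7060 to 7670). They did so too in C3H/HeJ (3470 to 5190 against 5370 to 6150), and in A/J they overlapped (4920 to 5500 against 5430 to 5560). After scaling to 1 median, the male and female log2 differences were −0.39 and −0.56 in C57BL/6 and −0.15 and −0.29 in C3H/HeJ.

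Sftpb encodes surfactant protein B, which is indispensable for the surface film. C57BL/6 controls read 5079 and 4922 on its probe set, 1437028_at, and the 3 week pools 3755 (male) and 3688 (female). The treated pools lay below both controls, and the change was −0.42 (SE 0.10, limma adjusted p = 0.00904), or 1.34-fold. The size of this fall was the smallest among the called member probe sets. On this normalized scale A/J pools at 3 weeks read 4716 to 5079 against 4305 and 5031 in controls, which overlapped. C3H/HeJ pools read 4371 and 4615 against 4716 and 4217, which overlapped too. As deposited, the 3 week pools lay below controls in C57BL/6 (4020 to 4350 against 6250) and C3H/HeJ (3290 to 4330 against 4420 to 5560). In A/J they overlapped (3540 to 4770 against 4520 to 5220). After scaling to 1 median, the male and female log2 differences were −0.28 and −0.37 in C57BL/6 and −0.08 and −0.27 in C3H/HeJ.

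Sftpa1 and Sftpb, both called lower in C57BL/6 at 3 weeks, are textbook targets of Nkx2-1, which is on the list and was itself not called. Whether Nkx2-1 had a part in their changes was not tested. The stretches just upstream of the start of both genes are shown as a description. Each is the 250 bases before the RefSeq start on GRCm38.p6, plus strand, at chr14:41131538-41131787 for Sftpa1 and chr6:72304360-72304609 for Sftpb. Capitals mark the letters CTCAAG, the core bound by Nkx2-1, which were searched on both strands (as CTCAAG or CTTGAG).
Sftpa1: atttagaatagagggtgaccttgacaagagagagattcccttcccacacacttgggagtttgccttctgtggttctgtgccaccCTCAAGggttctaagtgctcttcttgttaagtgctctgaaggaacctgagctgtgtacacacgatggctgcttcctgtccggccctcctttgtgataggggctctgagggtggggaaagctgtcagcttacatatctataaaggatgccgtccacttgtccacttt
Sftpb: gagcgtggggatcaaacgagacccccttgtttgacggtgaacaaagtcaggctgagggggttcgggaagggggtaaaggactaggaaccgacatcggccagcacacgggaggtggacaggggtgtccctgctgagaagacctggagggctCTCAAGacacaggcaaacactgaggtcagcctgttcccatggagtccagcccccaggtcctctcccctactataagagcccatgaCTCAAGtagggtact
The Sftpa1 window holds 1 match and the Sftpb window 2. Of 32851 mouse promoter windows of the same length, 13.3% hold at least 1 match and 0.998% hold 2 or more. The windows of Abca3, Etv5, Fgfr2, Nkx2-1 and Lamp3 hold 0, which says only that these letters are not in those windows. No window was available for Sftpc, Sftpd or Napsa, so whether the letters occur upstream of these genes was not examined. A forkhead motif, TGTTTAC or GTAAACA, which does not overlap with CTCAAG, was in 3.17% of all windows, and was absent from the Sftpa1 and Sftpb windows; it was found in the Lamp3 window and in 1 of the 2 Etv5 windows. A match is a description of the sequence, not a site of binding.

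Sftpc encodes surfactant protein C, a defining marker of the type 2 cell in the adult lung. Its main probe set, 1418639_at, sat at rank 2 to 14 on every array, next to the brightest signal of the array. It read 6738 and 7395 in C57BL/6 controls, 6827 in both 3 week pools, 6935 and 6041 in moribund pools and 7080 at 6 weeks. In A/J it ran from 6601 to 7196 and in C3H/HeJ from 6510 to 7196 over all stages. On this normalized scale treated pools overlapped with their controls, apart from A/J at 6 weeks (7080 and 7196 against 6601 and 6827). The change there was 0.09 (SE 0.08, limma adjusted p = 0.999). At 3 weeks the change was −0.05 in C57BL/6 (95% interval −0.22 to 0.12), 0.06 in A/J and 0.02 in C3H/HeJ. As deposited, the 3 week pools lay below controls in C57BL/6 (6500 to 7190 against 8230 to 8890) and C3H/HeJ (5290 to 6690 against 7330 to 7580). In A/J they overlapped. After scaling to 1 median, the male and female log2 differences were 0.01 and −0.15 in C57BL/6 and 0.21 and −0.42 in C3H/HeJ. The other Sftpc probe set, 1438290_x_at, read 2.4 to 40.3 as deposited, fell under the dim filter and was not tested. Affymetrix gives the suffix x_at to probe sets that share probes with other sequences.

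Sftpc, Sftpd, Sftpb and the bright Sftpa1 probe set lay at the top of the scale. Over the 21 arrays the highest Sftpc signal was 1.68 times the lowest as deposited (8889 on the C57BL/6 female control, whose median was 111, and 5290 on the C3H/HeJ male 3 week array, whose median was 61.6). That ratio was 1.51 after each array was brought to 1 median and 1.22 after quantile normalization, where only the rank of a probe set counts. The same 3 ratios were 1.76, 1.57 and 1.33 for Sftpd, 2.05, 1.53 and 1.47 for Sftpb and 2.21, 1.83 and 1.64 for the bright Sftpa1 probe set. For the dimmer Sftpa1 probe set they were 9.50, 6.72 and 6.67. How far hybridisation of these probe sets was saturated was not tested, since the deposited table holds no saturation mark.

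**Figure D2:**
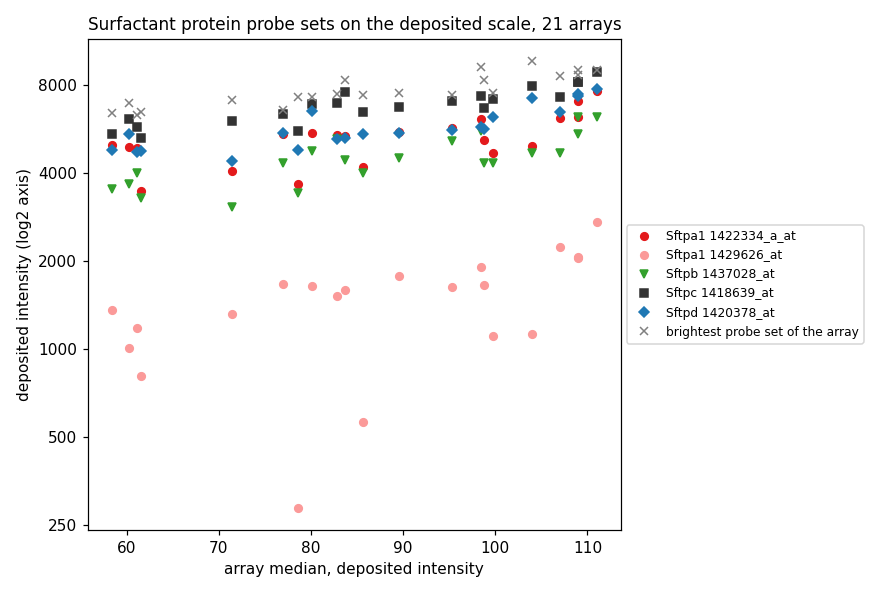
Deposited intensity (log2 axis) of the surfactant protein probe sets on each of the 21 arrays against the median of that array; crosses mark the brightest probe set of the array. Sftpc lies just under the crosses, between 5290 and 8889, and Sftpd and the bright Sftpa1 probe set follow, while Sftpa1 1429626_at spans 286.4 to 2721.

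Sftpd encodes surfactant protein D, a collectin of host defence, and its probe set 1420378_at stood at rank 8 to 30. C57BL/6 controls both read 6372 and the 3 week pools 5664 and 5431. A/J controls read 5265 and 5079 against 6041 to 6510 in the 4 treated pools, and C3H/HeJ controls read 4970 and 5002 against 6113 and 6041. On this normalized scale the treated pools lay below their controls in C57BL/6 and above them in A/J and C3H/HeJ, without overlap. As deposited, the pools overlapped in A/J (4820 to 6530 against 5240 to 5490) and C3H/HeJ (4750 to 5670 against 5300 to 5780). They stayed apart in C57BL/6 (5460 to 6250 against 7470 to 7750). No normalized change was called: −0.20 (SE 0.09, limma adjusted p = 0.198) in C57BL/6, 0.27 (SE 0.08, adjusted p = 0.177) in A/J and 0.28 (SE 0.09, adjusted p = 0.149) in C3H/HeJ. The difference between the changes of C57BL/6 and A/J was −0.47 (SE 0.12, adjusted p = 0.0765), and that between C57BL/6 and C3H/HeJ −0.48 (SE 0.13, adjusted p = 0.115). With the deposited scaling the change was 0.05 in A/J and −0.09 in C3H/HeJ, where the median of all probe sets moved by −0.34 and −0.30.

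**Figure D3:**
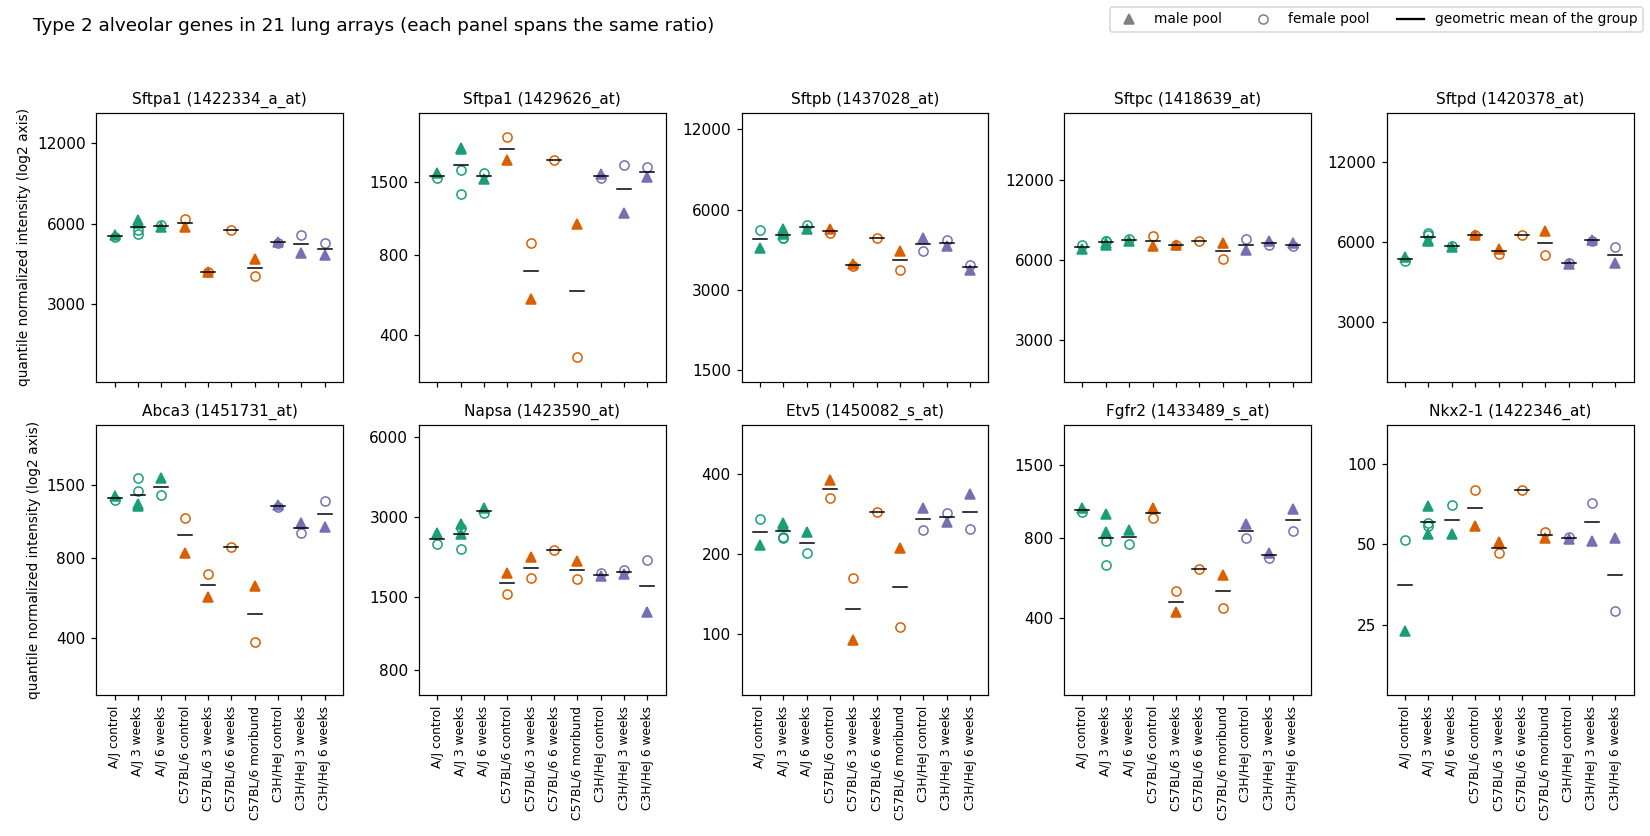
Quantile normalized intensity (log2 axis) of 10 member probe sets in each array, by strain and stage; triangles are male pools, circles female pools and bars the geometric mean of a group, and each panel spans the same ratio. The panels of Sftpc and Sftpd span the least. In C57BL/6 the 3 week and moribund pools of Sftpa1, Sftpb, Abca3, Etv5 and Fgfr2 lie below the controls.

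Abca3 encodes the lipid transporter of the lamellar body and had 3 probe sets. On the brightest, 1451731_at, C57BL/6 controls read 835 and 1124 and the 3 week pools 571 and 693, a change of −0.61 (SE 0.20) that was not called (limma adjusted p = 0.0609). On 1425496_at, controls of 378 and 505 stood against 228 and 352, a change of −0.60 (SE 0.23, adjusted p = 0.117). On the dim 1451869_at, controls of 51.3 and 73.3 stood against 24.8 and 30.3, and this change, −0.83 (SE 0.24), was called (adjusted p = 0.0345). All 3 pairs of treated pools lay below their controls, so the probe sets differed in the call and not in direction. They were read on the same arrays and are not separate observations. The called one was among the dimmest members: its 3 week values lay below 42.5, the mean over all arrays under which a probe set was not tested.

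Napsa encodes napsin A, an aspartic protease that helps process surfactant protein B. It was the one member with a positive change in C57BL/6 at 3 weeks, 0.19 (SE 0.17, limma adjusted p = 0.54), with controls of 1854 and 1544 and treated pools of 2114 and 1769. The groups overlapped. Its highest levels were in A/J at 6 weeks (3227 and 3088), and its lowest single value was in C3H/HeJ at 6 weeks (1323 in the male pool, 2065 in the female pool).

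Fgfr2, the receptor, fell in C57BL/6 at 3 weeks on both probe sets. On 1433489_s_at the controls read 1033 and 949 and the treated pools 420 (male) and 505 (female), without overlap, a change of −1.08 (SE 0.16, limma adjusted p = 3e-04), or 2.11-fold. On 1420847_a_at the controls read 571 and 380 against 155 and 170, a change of −1.44 (SE 0.27, adjusted p = 0.00273). The other strains moved less on the first of these: A/J controls of 1034 and 999 stood against 840, 980, 773 and 634 at 3 weeks, and C3H/HeJ controls of 900 and 797 against 698 and 673. All treated pools lay below the controls there, but the changes, −0.34 (SE 0.14, adjusted p = 0.393) and −0.30 (SE 0.16, adjusted p = 0.39), were not called. On 1420847_a_at they were −0.15 (SE 0.24) and 0.06 (SE 0.27).

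Etv5, the ETS factor downstream of FGF receptors, was called on 1 of 2 probe sets. On 1450082_s_at C57BL/6 controls read 378 and 323 and the 3 week pools 95.4 (male) and 162 (female), a change of −1.38 (SE 0.25, limma adjusted p = 0.00199), or 2.59-fold. On 1420998_at the controls read 254 and 240 against 106 and 161, and the change of −0.84 (SE 0.43) was not called (adjusted p = 0.24). In A/J and C3H/HeJ the 3 week change on 1450082_s_at was 0.02 in each (SE 0.22 and 0.25).

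Nkx2-1 was dim. Its probe set read 58.7 and 79.8 in C57BL/6 controls and 51.1 and 46.3 at 3 weeks, a change of −0.39 (95% interval −0.95 to 0.17, limma adjusted p = 0.406). In A/J it read 23.8 and 52.2 in controls and 55.0 to 69.9 at 3 weeks (0.56, SE 0.23, adjusted p = 0.412), where the male control was the lowest of all 21 arrays. The C57BL/6 pools did not overlap, but the interval holds 0.

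Limits of the C57BL/6 calls were these. Fgfr2 1433489_s_at was called under all 34 other settings tried, whereas Sftpa1 1422334_a_at lost its call with the deposited scaling (limma adjusted p = 0.0569) and after scaling to 1 median (0.0514), and Sftpb lost its call in 7 of 34 settings and Abca3 1451869_at in 6 of 31. Sftpa1 1429626_at lost its call in 3 of 33 settings (adjusted p up to 0.217), Etv5 1450082_s_at in 2 of 34 (up to 0.0731) and Fgfr2 1420847_a_at in 2 of 33 (up to 0.0582). Without the male 3 week array 2 member probe sets were called, without the male control 4 and without the female control 4.

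Moribund C57BL/6 mice were compared with the same controls. In their lungs 8 of the 14 probe sets, again of Sftpa1, Sftpb, Abca3, Etv5 and Fgfr2, were called lower and 0 higher, where 6.9% of all probe sets were called lower and 5.86% higher. Sftpa1 1422334_a_at read 4428 in the male and 3820 in the female pool, below both controls (−0.55, SE 0.10, limma adjusted p = 0.00118). Sftpa1 1429626_at read 1043 and 330, the latter the lowest of the 21 arrays (−1.73, SE 0.36, adjusted p = 0.00413). Sftpb read 4217 and 3572 (−0.36, SE 0.10, adjusted p = 0.0198). The female pool, which had the higher dose (125 against 100 mg/kg), was the lower of the pair for all 3 of these. In the treated groups with 2 arrays, in each of the strains, sex and dose cannot be told apart.

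Abca3 1451731_at, which missed the threshold at 3 weeks, read 624 and 385 in moribund pools (−0.96, SE 0.20, limma adjusted p = 0.00444), and 1451869_at read 21.6 and 29.6 (−0.90, SE 0.24, adjusted p = 0.0202). Fgfr2 1433489_s_at read 578 and 437 (−0.96, SE 0.16, adjusted p = 0.000736), and 1420847_a_at read 331 and 144 (−1.03, SE 0.27, adjusted p = 0.02). Etv5 1450082_s_at read 211 and 106 (−1.13, SE 0.25, adjusted p = 0.00715). Abca3 1425496_at, Etv5 1420998_at, Sftpc, Sftpd, Napsa and Nkx2-1 were not called, with changes from −0.61 to 0.16. Set directly against the 3 week pools, the moribund pools had 0 called member probe sets with limma, 0 at an unadjusted p under 0.05, and a smallest adjusted p of 0.602; of all probe sets 0.00663% were called lower. The 95% interval of that difference was −0.15 to 0.25 for Sftpa1 1422334_a_at, −0.99 to 0.52 for Sftpa1 1429626_at and −0.21 to 0.45 for Fgfr2 1433489_s_at. Without the female moribund array the change of Sftpa1 1429626_at was −0.88, that of Fgfr2 1420847_a_at −0.48, that of Abca3 1451731_at −0.56 and that of Etv5 1450082_s_at −0.71, and none of these 4 was called (limma adjusted p up to 0.329). Without that array 2 member probe sets were called against controls, without the male control 5 and without the female control 4.

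At 6 weeks C57BL/6 had 1 array, whose spread the model takes to be like that of the other groups. With limma 0 member probe sets were called against controls (1 at an unadjusted p under 0.05, beside 12.1% of all probe sets; smallest adjusted p = 0.173), where 0.431% of all probe sets were called lower and 1.1% higher. This array read 5664 for Sftpa1 1422334_a_at, 1807 for Sftpa1 1429626_at, 4716 for Sftpb, 288 for Etv5 1450082_s_at and 374 for Fgfr2 1420847_a_at. Each of these lay above both 3 week pools and at or under the lower control. Fgfr2 1433489_s_at read 612, between the 3 week pools and the controls (−0.60 from controls, SE 0.19). Against the 3 week pools all 14 probe sets had a positive difference (median 0.51) beside a median of −0.03 over all probe sets. Of these 14, 7 had an unadjusted p under 0.05, as had 10.4% of all probe sets, but 0 were called with limma (smallest adjusted p = 0.193), where 0.00663% of all probe sets were called higher.

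**Figure D4:**
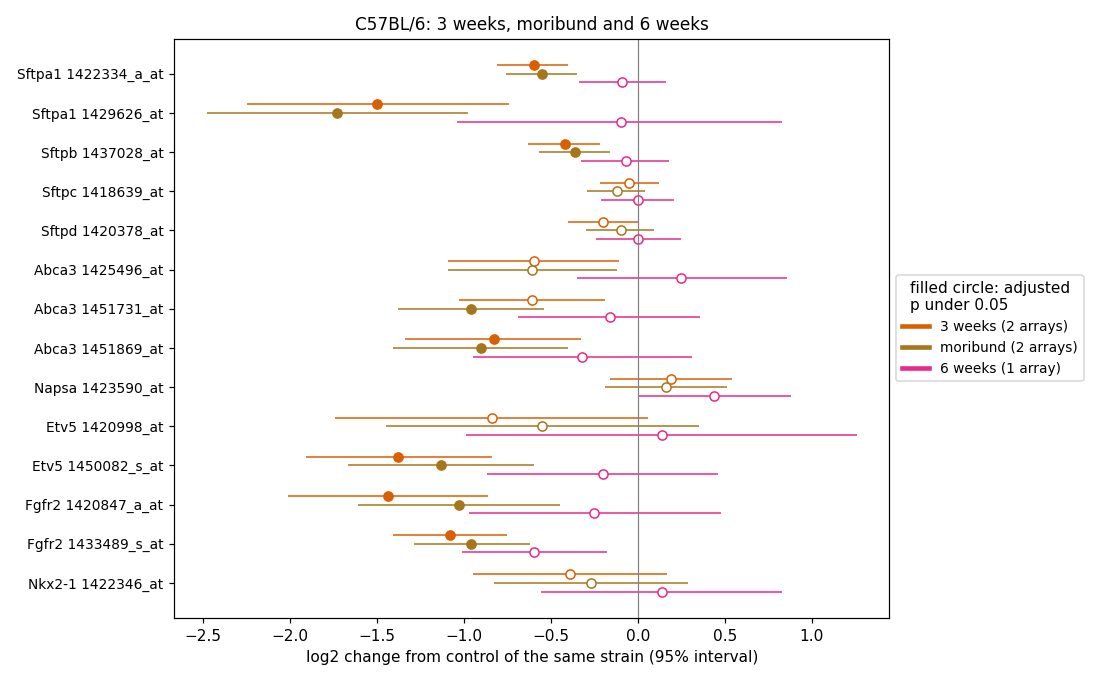
Change from control in C57BL/6 at 3 weeks (2 arrays), in moribund mice (2 arrays) and at 6 weeks (1 array) for the 14 tested member probe sets, in log2 units with 95% intervals; filled circles passed at adjusted p under 0.05. The 3 comparisons share the same 2 control arrays, the 3 week and moribund circles lie close together, and no 6 week circle is filled.

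In A/J and C3H/HeJ at 6 weeks 0 member probe sets were called with limma against controls (1 in each at an unadjusted p under 0.05, beside 4.7% and 4.46% of all probe sets; smallest adjusted p = 0.999 and 0.844), where 0.0994% and 0.0663% of all probe sets were called either way. The largest member changes were in Nkx2-1 in A/J (0.58, SE 0.26; 54.8 and 70.2 against 23.8 and 52.2) and in Etv5 1420998_at in C3H/HeJ (−0.47, SE 0.43; 203 and 92.0 against 183 and 212). Sftpb read 3582 and 3733 in C3H/HeJ at 6 weeks against 4716 and 4217 in controls (−0.29, SE 0.10), the member change there with the smallest unadjusted p, 0.0091. Without the C3H/HeJ female 6 week array, which had the high Gapdh ratio, the Sftpb change was −0.33 and that of Nkx2-1 0.09 in place of −0.32. The part of RNA quality in these values was not tested beyond that.

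The difference between strains in the 3 week change was tested directly. Between C57BL/6 and A/J, 1 member probe set was called, the bright Sftpa1 1422334_a_at, whose change was lower in C57BL/6 by a difference of −0.72 (SE 0.13, limma adjusted p = 0.0121); 0.471% of all probe sets were called lower. Etv5 1450082_s_at (−1.39, SE 0.33, adjusted p = 0.0559), Fgfr2 1420847_a_at (−1.28, SE 0.36, adjusted p = 0.104), Fgfr2 1433489_s_at (−0.73, SE 0.21, adjusted p = 0.104) and Sftpb (−0.48, SE 0.13, adjusted p = 0.0841) were not called. Between C57BL/6 and C3H/HeJ 0 were called (7 of the 14 at an unadjusted p under 0.05 beside 14.1% of all probe sets, smallest adjusted p = 0.0906; 0.0862% of all probe sets were called lower), with −0.58 (SE 0.14) for Sftpa1 1422334_a_at, −1.40 (SE 0.36) for Etv5 1450082_s_at and −1.50 (SE 0.39) for Fgfr2 1420847_a_at. Between C3H/HeJ and A/J 0 were called with limma and 0 had an unadjusted p under 0.05; of all probe sets 0% were called. A difference between strains was thus called only for Sftpa1 1422334_a_at, and only between C57BL/6 and A/J. For that probe set against C3H/HeJ, and for the other members, a fall called only in C57BL/6 is not a shown difference between strains.

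The call for Sftpa1 ended with the deposited scaling, with scaling to 1 median, and with the A/J 3 week pools limited to the doses of the other strains. It also ended without either A/J control, the C57BL/6 male 3 week array or the C57BL/6 female control; the difference stayed between −0.79 and −0.65 in every setting. Averaged over the 3 strains, the 3 week change was called lower for 4 member probe sets, those of Fgfr2 and the probe sets Sftpa1 1422334_a_at and Etv5 1450082_s_at, where 7.27% of all probe sets were called lower. Only Fgfr2 1433489_s_at kept this call in all 34 other settings; Sftpa1 1422334_a_at lost it in 18 of 34, Etv5 1450082_s_at in 16 of 34 and Fgfr2 1420847_a_at in 12 of 33. For these 3 the changes in A/J and C3H/HeJ, given above, lay between −0.15 and 0.12.

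Control lungs of the 3 strains differed in 0 member probe sets with limma; 3.17% of all probe sets were called either way between A/J and C57BL/6, 1.01% between A/J and C3H/HeJ and 2.5% between C57BL/6 and C3H/HeJ. At an unadjusted p under 0.05 there were 4, 1 and 2 of the 14 member probe sets, beside 16%, 6.58% and 14% of all probe sets, so the last 2 counts are at the background share. Sftpd was highest in C57BL/6 controls, 6372 in both pools against 5265 and 5079 in A/J (adjusted p = 0.097) and 4970 and 5002 in C3H/HeJ (adjusted p = 0.0572). Napsa was highest in A/J controls, 2606 and 2368 against 1854 and 1544 in C57BL/6 (0.55, SE 0.17, adjusted p = 0.0903) and 1803 and 1842 in C3H/HeJ (0.44, SE 0.17, adjusted p = 0.483).

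The order of the 10 groups differed among members. The lowest group mean was C57BL/6 at 3 weeks or moribund for Sftpa1, Abca3, Etv5, Fgfr2 and Sftpc 1418639_at, C3H/HeJ at 6 weeks for Sftpb and Napsa, C3H/HeJ controls for Sftpd and A/J controls for Nkx2-1. From highest to lowest group mean Sftpc spanned 0.14 on the log2 scale, less than the gap between its male and female moribund pools (6935 and 6041), so its groups have no order beyond their spread. The widest span was 1.73, for Sftpa1 1429626_at, whose 8 groups other than C57BL/6 at 3 weeks and moribund overlapped in a chain. Between different genes the closest pairs over the 10 group means were Sftpa1 1429626_at with Abca3 1451869_at (r = 0.953) and Etv5 1450082_s_at with Fgfr2 1420847_a_at (r = 0.946), and the lowest was Fgfr2 1433489_s_at with Nkx2-1 (r = −0.242). These are descriptions over group means from shared arrays. The mean standardized profile of the 9 genes was highest in A/J at 6 weeks (0.78) and lowest in C57BL/6 at 3 weeks and moribund (−1.09 in each). The genes outside the list whose group means were most like it were Tfb2m (r = 0.941), Prmt2 (0.928), Dnttip2 (0.921), Bsg (0.905), Nap1l1 (0.898), Treml1 (0.886), Nadk (0.883) and Tmem184a (0.879), and none of these 8 was itself called in C57BL/6 at 3 weeks (adjusted p = 0.0672 to 0.558).

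Other genes of type 2 cells and of surfactant were taken from lists. In C57BL/6 at 3 weeks, where 5.31% of all 9079 genes were called lower and 6.49% higher, 5 of 18 other type 2 cell markers were lower and 1 higher (median −0.44). Slc34a2, the phosphate transporter of type 2 cells, fell by 0.89 on the log2 scale (SE 0.18, limma adjusted p = 0.00474), the secreted ribonuclease Rnase4 by 0.85 (SE 0.13) and Dram1, a regulator of autophagy, by 0.55 (SE 0.10). The one that rose was Ctsh (0.97, SE 0.15, adjusted p = 0.000384), a cathepsin that takes part in processing surfactant proteins and is also made by macrophages. Of 21 surfactant lipid synthesis genes 2 were lower, Lpin2 (−0.72, SE 0.16) and Acly (−0.52, SE 0.12), a phosphatidate phosphatase and the enzyme that supplies cytosolic acetyl-CoA, and 0 higher (median −0.33). Of 12 lamellar body and trafficking genes 1 was lower, the palmitoyltransferase Zdhhc3 (−0.81, SE 0.24), and the median was −0.07.

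Of 15 epithelial transcription factors 3 were lower in C57BL/6 at 3 weeks, Klf5 (−1.18, SE 0.17), Foxa1 (−0.91, SE 0.16) and Elf5 (−0.68, SE 0.20), and 1 higher, Cebpd (0.65, SE 0.20), with a median of −0.31. In the FGF pathway 2 of 12 genes were lower, the ligand Fgf1 (−1.18, SE 0.15, limma adjusted p = 0.000131) and the receptor Fgfr3 (−0.67, SE 0.18), and 1 higher, the ERK phosphatase Dusp6 (0.78, SE 0.13, adjusted p = 0.00102). Fgf10, the ligand best known for acting on Fgfr2 in lung, was under the dim filter. Of 10 genes of surfactant uptake and clearance, which macrophages express, 6 were higher and 1 lower (median 0.73): the scavenger receptor Msr1 rose by 2.81 (SE 0.32), the cytokine receptor chain Csf2rb2 by 1.59 (SE 0.18) and the lipid exporter Abca1 by 0.80 (SE 0.15), and Cd36 fell by 0.57 (SE 0.12).

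Moribund C57BL/6 lungs gave 8 lower and 1 higher of the 18 other type 2 markers (median −0.61), 4 lower of 21 lipid genes, 3 lower of 15 transcription factors, and 3 lower and 1 higher of 12 FGF genes, where 7.54% of all genes were called lower and 6.41% higher. At 3 weeks in A/J, 0 genes of these lists and of the uptake list were called with limma. In C3H/HeJ, Foxa1 was lower (−0.77, SE 0.16, adjusted p = 0.0178) and 3 uptake genes were higher, among them Marco (1.61, SE 0.24) and Msr1 (1.41, SE 0.32), and the other counts were 0. Of all genes 0.187% were lower and 0.76% higher in A/J, and 0.683% and 1.39% in C3H/HeJ.

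Markers of other cells moved in the same lungs. In bulk tissue fewer cells of a type and less RNA per cell cannot be told apart, and quantile normalization gives each probe set a value by its rank within the array, so a level is relative to the other probe sets. In C57BL/6 at 3 weeks macrophage markers were higher in 11 of 15 genes and lower in 1 (Gpnmb 3.58, Trem2 3.31, C1qc 2.80, C1qa 2.57), and their summed intensity was 8160 to 8790 in controls and 18200 to 19100 at 3 weeks. It was 20200 to 21200 in moribund pools and 17400 on the 1 array at 6 weeks. Endothelial markers were lower in 11 of 15 and higher in 1 (Car4 −1.17, Tek −0.89, Eng −0.76, Ramp2 −0.66; sums of 16700 to 17000 in controls and 10300 to 12500 at 3 weeks). Cardiac muscle markers were lower in 8 of 11 (Myl7 −1.54, Tnni3 −1.47, Sln −1.45, Myl4 −1.27; sums of 5630 to 5770 and 1970 to 2540). Called falls of this size therefore included genes of non-epithelial cells.

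Type 1 alveolar markers were lower in 4 of 12 and higher in 1 (Vegfa −0.73, Limch1 −0.68, Cav1 −0.64, Hopx −0.47; sums of 23500 to 24500 in controls and 18800 to 19000 at 3 weeks), and airway markers lower in 7 of 13 and higher in 1 (Tppp3 −1.68, Fmo1 −1.42, Fmo2 −1.19 against Reg3g 1.48). General epithelial markers were mixed, 2 of 14 lower (Cdh16 −1.82, Cdh1 −0.41) and 2 higher (Krt8 0.60, Krt7 0.43), and their sum overlapped between controls (9430 to 9960) and 3 weeks (8900 to 10000). Neutrophil markers were higher in 7 of 10 (Lcn2 1.81, S100a8 1.70, Csf3r 1.02, Ncf4 0.93) and dendritic cell markers in 4 of 10 (Ccl17 1.13, Batf3 0.90, Itgae 0.85, Fscn1 0.77). In A/J and C3H/HeJ at 3 weeks, 4 and 10 of 15 macrophage markers and 8 and 5 of 10 neutrophil markers were higher. In these strains Gpnmb rose by 1.90 and 1.64, Trem2 by 2.11 and 2.66, and Lcn2 by 2.17 and 2.23. Cardiac markers were lower there in 4 and 6 of 11 (Sln −1.23 and −0.93, Myh6 −1.24 and −1.20), and Tek was lower in C3H/HeJ (−0.87). In those strains Tppp3 (−0.56) and Muc5b (−0.76) in A/J and Fmo1 (−0.68) and Bpifa1 (−1.07) in C3H/HeJ led the lower airway markers, and Ccl17 (0.76), S100a8 (2.55), Fscn1 (0.88) and Csf3r (1.20) were higher where their strain's rule named them. The part of these shifts in the member changes was not tested. The Gapdh ratio was 0.853 to 0.928 in C57BL/6 controls, 1 to 1.06 at 3 weeks and 0.770 to 0.885 in moribund pools. With this ratio as a covariate, Abca3 1451869_at lost its 3 week call in C57BL/6. The part of RNA quality in the member changes was not tested beyond that.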

How the data were processed

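Total RNA of whole right lung was measured on 21 mouse Affymetrix arrays. Per the labels, RNA of 3 to 5 mice was pooled after Trizol extraction and 1 sample of the pool was hybridised by standard Affymetrix procedures. The deposited values are intensity on a linear scale. The sources used here do not name the software that summarised the probes, nor its background and scaling steps.

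Each of the 21 columns belongs to 1 sample. Without the 64 control probe sets 22626 remained. Symbols were taken from the platform annotation, brought to current symbols: 20380 probe sets carried exactly 1 symbol, 691 several and 1555 none. Values were quantile normalized and turned into log2(value + 16), and the dimmest 33.3% by mean over all arrays were dropped, which left 15084. In R 4.3.3 with limma 3.58.1, group and sex were fitted over all 21 arrays (lmFit, contrasts.fit, eBayes with trend; 10 residual degrees of freedom, 16.4 after shrinkage), with Benjamini-Hochberg adjustment over all 15084 probe sets, two-sided, and a call at adjusted p under 0.05. A gene of the member list counts as called when at least 1 of its probe sets passes; a gene of the other lists was represented by its brightest probe set. The procedure was tested on simulated data with independent noise, where 200 random probe sets were shifted on the log2 scale, after normalization. The narrowing of signals at the top of the scale by quantile normalization was therefore not simulated. Of 2-fold changes the procedure called 63.5% for C57BL/6 at 3 weeks against control and 23% for the difference between C57BL/6 and A/J. Of 4-fold changes it called 98% and 91%. Changes of 2-fold or less can therefore go uncalled.

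The members and the 14 other lists were chosen with earlier results of these data known. Named are every member probe set; from each other list up to 4 called genes with the smallest p in C57BL/6 at 3 weeks and up to 2 in A/J and in C3H/HeJ; and the 8 genes with group means most like the members. Alternatives were other scalings, offsets of 1 and 64, a dim filter on the lower 50% or none, no sex term, fewer strains in the fit, 1 probe set per gene, array weights, covariates for array brightness and the Gapdh ratio, matched A/J doses, adjusted p under 0.10, and leaving out each array.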

Additional observations from a re-analysis of the deposited data

Results flagged for a closer look

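The 3 week change of Sftpa1 on 1422334_a_at differed between strains by a test of the difference itself: it was −0.60 in C57BL/6 and 0.12 in A/J, and C57BL/6 minus A/J was −0.72 on the log2 scale (SE 0.13, limma adjusted p = 0.0121). The call was lost in 7 of 35 other settings: the deposited scaling, 1 median, matched A/J doses and 4 single arrays left out, with an adjusted p up to 0.706. The other Sftpa1 probe set, 1429626_at, gave a difference of −1.62 (SE 0.47) that was not called (adjusted p = 0.115). Single arrays far from the rest of their group were looked for in the A/J 3 week group, the only one with over 3 arrays, in 14 checks of which chance flags about 1 in 20, and none was found.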

How the results depend on the processing

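No paired analysis was possible because the labels give no replicate numbers and do not say that pools share animals, cages or days. Pools of the same sex were matched only through the sex term of the model. Sex and dose differ together in the treated groups of C57BL/6 and C3H/HeJ and in A/J at 6 weeks, and in part in A/J at 3 weeks. Of the member changes under all settings, 8025 kept their direction and side of the threshold, 84 passed that had not, 99 no longer passed, 257 uncalled ones changed sign, and 0 called ones reversed. Counts of called member probe sets changed as follows. In C57BL/6 at 3 weeks (7 called) they were 4 with the deposited scaling and 3 with a fit on that strain alone, and 2 to 9 when 1 array was left out. In moribund mice (8 called) they were 2 with that strain alone, 5 with 1 probe set per gene and 2 to 8 without 1 array. For the 3 week difference of C57BL/6 and A/J (1 called) they were 0 with the deposited scaling, with 1 median and with matched A/J doses, 2 with an offset of 64, with the lower 50% left out and with 1 probe set per gene, 7 with array weights, 6 with the brightness covariate and 4 at adjusted p under 0.10. Without 1 array they were 0 to 6, with 6 without either moribund array. For C57BL/6 and C3H/HeJ (0 called) they were 1 with array weights and with the brightness covariate, 3 at adjusted p under 0.10 and 0 to 4 without 1 array. For the mean of the strains (4 called) they were 8 with the deposited scaling, 1 without a dim filter, with the brightness covariate and with matched A/J doses, and 1 to 6 without 1 array, 1 in each case without the male 3 week array or the male control of C57BL/6. For control A/J and C57BL/6 (0 called) they were 1 with only these strains, 2 with array weights, 2 at adjusted p under 0.10 and 0 to 1 without 1 array; for control C57BL/6 and C3H/HeJ (0 called) they were 1 with an offset of 64, with the lower 50% left out, without the sex term, with array weights and at adjusted p under 0.10, and 0 to 1 without 1 array. In A/J at 3 weeks (0 called) array weights gave 1. The other comparisons stayed at 0 in every setting run. The cause of these differences was not tested, apart from the fits on 1 strain, which have fewer arrays.

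Signal over background limits Nkx2-1 and Abca3 1451869_at, which lie near the dim filter, and Sftpc, Sftpd, Sftpb and Sftpa1 1422334_a_at lie at the top of the scale, where saturation was not tested. With the deposited scaling the median of all probe sets moved by −0.18 in C57BL/6 at 3 weeks and by −0.28 in moribund mice.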
